A study of Mus musculus with 18 samples.

Results

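The 8 integrin genes described here are Itga4, Itga5, Itgal, Itgam, Itgav and Itgax, which encode α subunits, and Itgb1 and Itgb2, which encode β subunits. They were taken by symbol from a table of 11243 protein-coding genes, and all 8 were found in it. The cells were RAW264.7, a mouse macrophage line. Control cells received vehicle and no LPS, and are also called untreated by the study. LPS cells received 500 ng/mL lipopolysaccharide of Salmonella minnesota for 6 h. LPS + torin1 cells received the same LPS in combination with 100 nM torin1, which blocks the kinase mTOR. Torin1 was added 15 min before the LPS. Each treatment was made in 3 independent experiments, and each of the 9 lysates was sequenced as total mRNA and as polysome-associated mRNA, which is the mRNA of the pooled heavy fractions of a sucrose gradient. The design asked how LPS changes the mRNAs present and the mRNAs on polysomes, and how both differ when torin1 is added. No library here had torin1 without LPS. An effect of torin1 on the response to LPS cannot be told apart from its effect on resting cells.

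The 18 libraries held between 27800983 and 47725557 counts. Levels below are CPM (counts scaled to the library total) with TMM normalization within an RNA type, and values in 3 libraries are given in the order of experiments 1, 2 and 3. Of 9 macrophage markers, 8 were in the table (Mertk was the exception), and their summed level in total mRNA was 11810 to 12580 CPM in control, 12280 to 13760 CPM in LPS and 10200 to 10920 CPM in LPS + torin1 cells. Lyz2 alone had 6978 to 8002 CPM in control and 5829 to 7825 CPM with LPS. Single markers were not steady. By the test used below, 5 of the 8 were higher and 1, Csf1r, was lower with LPS in total mRNA. None of 5 B cell markers and none of 5 fibroblast markers was listed, and of 6 T cell markers and 6 neutrophil markers only Lck and S100a8 were. These are measurements of a cell population, in which fewer cells of a kind and less RNA per cell cannot be told apart.

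Integrins are heterodimers of an α and a β subunit that hold cells to matrix or to other cells and signal in both directions across the membrane. The β2 chain, Itgb2 (CD18), is found on leukocytes, where it pairs with Itgal (CD11a) to form LFA-1, with Itgam (CD11b) to form Mac-1, the complement receptor that also serves phagocytosis, and with Itgax (CD11c), a chain widely used as a marker of dendritic cells. The β1 chain, Itgb1, pairs with Itga4, whose receptor binds VCAM-1 and fibronectin, and with Itga5, whose receptor binds fibronectin. Itgav pairs with several β chains, binds ligands such as vitronectin and osteopontin, and takes part in the uptake of apoptotic cells.

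The CD11 genes below are the 3 among these 8, since Itgad (CD11d), another partner of Itgb2, is not in the table. In the GRCm38 annotation these 3 lie on the plus strand of chromosome 7, with Itgal at chr7:127296260-127335138, Itgam at chr7:128062640-128118491 and Itgax at chr7:128129547-128150657. Itgam and Itgax are neighbours, with 11055 bases and 0 protein-coding genes between them. Between Itgal and Itgam lie 727.5 kb and 38 protein-coding genes. Itga4 (chr2:79255426-79333123, plus strand) and Itgav (chr2:83724397-83806916, plus strand) share chromosome 2. Itga5 lies at chr15:103344286-103366763 on the minus strand, Itgb1 at chr8:128685654-128733200 and Itgb2 at chr10:77530252-77565708, both on the plus strand. Exons of Itga4 share 1124 bases with Cerkl and exons of Itgav share 634 bases with Gm13684, both on the other strand. Exons of Itgam, 5024 bases when merged, share 3450 bases with Gm49368 on the same strand. How reads in shared exons were counted is not known here, and they may have been left uncounted. Gm49368 is not in the table, so the levels and shares given for Itgam below may be too low. The shares of the other α genes, and Itgb2 divided by the sum of the CD11 genes, may then be too high.

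Promoter windows of 300 bases from RefSeq (GRCm38.p6, from 250 bases before to 50 after the start) were matched to 6 of the 8 genes, Itgal and Itgb2 being the exceptions. They were searched on both strands for motifs of factors known in macrophages. The short stretches below are shown because Itgam and Itgax are neighbours whose mRNAs rose under LPS. Each is printed 5′ to 3′ on the strand of the gene, with the motif in capitals, GAGGAA (the core bound by PU.1 and other ETS factors, here also as its complement TTCCTC) or TGANTCA (AP-1). Positions count the first base of the motif from the start.
Itgam, chr7:128062545-128062572, plus strand, position -84: gttttctcccgGAGGAAggctacagagg
Itgam, chr7:128062614-128062641, plus strand, position -15: ctcatagctttTTCCTCatacttctctg
Itgax, chr7:128129484-128129510, plus strand, position -56: ccacctcctcTGAGTCAcgctgacaac

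GAGGAA occurred in 28.3% of the 32851 windows and in 4 of the 6 integrin windows, those of Itgam (3 matches), Itgav, Itgb1 and Itga5. TGANTCA occurred in 7.81% of windows and in the window of Itgax alone among the 6. The kappa-B motif (1.47% of windows), the E-box CACGTG (7.15%) and the interferon-stimulated response element (3.44%) were found in 0 of the 6. The GC box GGGCGG was in 5 of the 6 and in 35.7% of windows. These matches describe letters in a window, and binding of a factor was not measured.

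The first 15 bases from the RefSeq start are shown because mTOR is best known for its control of mRNAs that begin with a cytosine and a run of pyrimidines, the TOP mRNAs. The opening run of pyrimidines is in capitals.
Itgam, chr7:128062640-128062654, plus strand: Tgtttttacccctcc
Itgax, chr7:128129550-128129564, plus strand: Catttgcttcttctg
Itga4, chr2:79255426-79255440, plus strand: gaaacggggcgtggg
Itga5, chr15:103366777-103366791, minus strand: agtctgagccaggcc
Itgb1, chr8:128685654-128685668, plus strand: gtttccggagggaga
Itgav, chr2:83724397-83724411, plus strand: TTCggcggggcggcc
A start of C with at least 5 pyrimidines in a row, the C included, occurred in 2.51% of all windows and in 0 of these 6. The longest run was 3 bases, in Itgav. These counts hold for RefSeq starts only. The annotation used for the gene positions starts Itga5 at chr15:103366763 and Itgax at chr7:128129547, which are other bases. The study also cautions that the mRNA leaders given by RefSeq may differ from those expressed.

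Itga4 was the most abundant integrin mRNA of control cells and Itgax the least abundant. Levels of different genes are compared as RPKM, CPM per kilobase of merged exons. In control total mRNA, Itga4 stood at 186.8 ± 5.52 RPKM (SD, n = 3), followed by Itgb2 at 80.9 ± 4.61, Itgb1 at 55.1 ± 3.28, Itga5 at 41.1 ± 8.14, Itgam at 32.1 ± 3.26 and Itgav at 28.1 ± 11.1. Itgal (3.47 ± 1.22 RPKM) and Itgax (0.796 ± 0.411 RPKM) were far below. The libraries of neighbours in this order overlapped only for Itgam and Itgav, whose order was exchanged when the length of the longest coding transcript was used.

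LPS removed the lead of Itga4. In LPS total mRNA, Itgam (141.6 ± 6.16 RPKM), Itgb2 (132 ± 18.8 RPKM), Itga5 (128 ± 60.7 RPKM) and Itga4 (93.2 ± 5.19 RPKM) followed each other with overlapping libraries. Itgb1 came next at 76.4 ± 3.65 RPKM, then Itgav at 36.8 ± 14.0, Itgal at 17.4 ± 6.24 and Itgax at 4.33 ± 2.34, with overlap between Itgav and Itgal. With torin1 and LPS, Itgb2 was the most abundant at 177 ± 29.9 RPKM, above Itgam at 127 ± 23.03 and Itga4 at 108 ± 10.8, which overlapped. Itgb1 (78.1 ± 8.34 RPKM) and Itga5 (61.6 ± 10.4 RPKM) overlapped as well, and Itgav stood at 26.7 ± 10.7. Itgal (7.32 ± 1.55 RPKM) and Itgax (7.67 ± 3.71 RPKM) overlapped there. On polysomes, Itga4 led in control cells (137 ± 11.8 RPKM), Itga5 and Itgb2 led with overlapping libraries under LPS (186 ± 62.9 and 155 ± 18.8 RPKM), and Itgb2 led with torin1 and LPS (181 ± 28.3 RPKM).

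**Figure D1:**
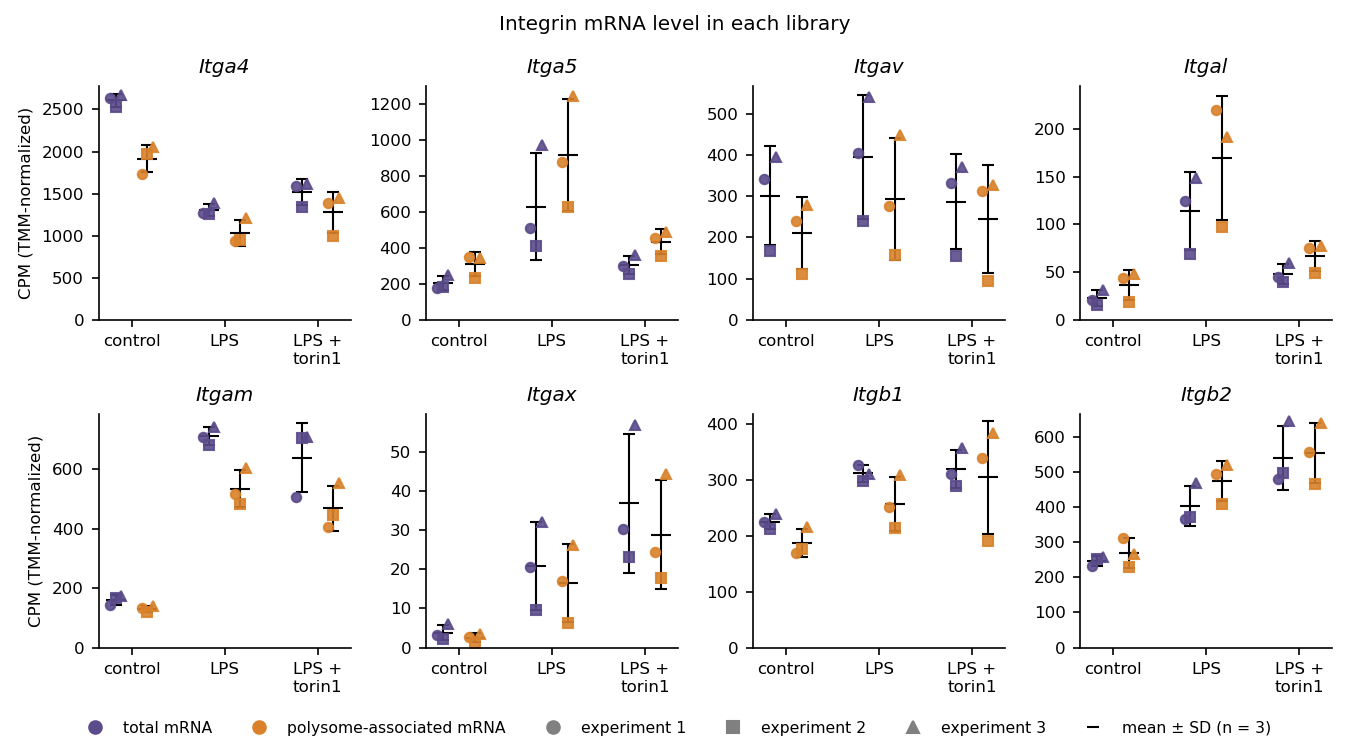
Level of each of the 8 integrin mRNAs (vertical axis, TMM-normalized CPM, from 0, with its own scale in each panel) in control, LPS and LPS + torin1 cells. Points are single libraries, purple for total and orange for polysome-associated mRNA, with the shape giving the experiment, and bars are the mean ± SD of 3 libraries. Itgam sits between 142 and 173 CPM in control total mRNA and between 681 and 743 CPM with LPS, and Itgav and Itgax are lowest in experiment 2 within each treatment and RNA type.

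LPS raised 6 of the 8 integrin mRNAs and lowered Itga4, in both RNA types. The 3 CD11 genes rose most, by 2.03 to 2.71 on the log2 scale, and Itga5 rose by about 1.6. Itgb2 and Itgb1 rose by less than 1. At an FDR (false discovery rate) of 0.25, the study's threshold, 7 of 8 passed edgeR's test in each RNA type, against 66.5% of all genes for total mRNA and 55.1% on polysomes. The direction was higher for 6 of 8 (32.2% and 26.4% of all genes) and lower for 1 of 8 (34.3% and 28.7%). The median change of the 8 was 1.17 in total and 1.19 in polysome-associated mRNA, beside −0.02 and −0.03 over all genes.

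Itgam, the α chain of Mac-1, had 142, 168 and 173 CPM in control and 711, 681 and 743 CPM in LPS total mRNA. On polysomes it had 133, 120.4 and 139.9 CPM in control and 517, 484 and 603 CPM in LPS cells. Every LPS library lay above every control library by a wide margin. The change was 2.14 ± 0.15 (log2, SE) in total mRNA (edgeR adjusted p = 2.84e-06) and 2.03 ± 0.17 on polysomes (edgeR adjusted p = 1.67e-05), about 4.42-fold and 4.08-fold.

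Itgal, the α chain of LFA-1, started low, at 20.8, 16.0 and 31.6 CPM in control total mRNA, and had 125.05, 68.8 and 148 CPM with LPS. On polysomes the values were 43.5, 18.5 and 47.5 CPM in control and 220.3, 96.9 and 192 CPM with LPS. The groups did not overlap, and experiment 2 was the lowest in both. Itgal rose by 2.32 ± 0.31 in total mRNA (edgeR adjusted p = 0.000193) and by 2.22 ± 0.39 on polysomes (edgeR adjusted p = 0.00155).

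Itgax was measured from 52 counts in its lowest library. It had 3.31, 2.16 and 6.00 CPM in control total mRNA and 20.6, 9.60 and 32.1 CPM with LPS. On polysomes it had 2.80, 1.17 and 3.55 CPM in control and 17.1, 6.15 and 26.2 CPM with LPS. The 3 experiments differed by several fold within each group, but the groups did not overlap. Itgax rose by 2.45 ± 0.51 (edgeR adjusted p = 0.00281) and by 2.71 ± 0.56 (edgeR adjusted p = 0.0041). Of 5 dendritic cell markers, Flt3, Siglech and Clec9a were not listed, and the other two moved in opposite directions. Xcr1, a chemokine receptor, had 0.636 to 0.881 CPM in control and 6.64 to 12.4 CPM in LPS total mRNA, a rise of 3.67 (edgeR adjusted p = 4.85e-06). Zbtb46, a transcription factor, had 0.516 to 1.23 CPM in control and 0.284 to 0.710 CPM with LPS, and fell by 1.07 on the log2 scale (edgeR adjusted p = 0.0611). Lck, of the T cell list, went from 3.48 to 5.29 CPM in control to 9.91 to 17.4 CPM with LPS, and S100a8, of the neutrophil list, from 0.114 to 0.273 CPM to 2.10 to 5.90 CPM. The part of these genes in the changes of the CD11 genes was not tested.

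Itgb2, the shared β chain of these 3, moved less than its partners. It had 231, 253 and 257 CPM in control and 366, 371 and 468 CPM in LPS total mRNA, and 313, 229 and 266 against 493, 409 and 519 CPM on polysomes. The lowest LPS library was above the highest control library in both. The rise was 0.70 ± 0.14 in total mRNA (edgeR adjusted p = 0.00247) and 0.81 ± 0.18 on polysomes (edgeR adjusted p = 0.00555).

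Itga4 was the one integrin of the 8 that fell. Its total mRNA had 2639, 2524 and 2671 CPM in control and 1266, 1257 and 1387 CPM with LPS. Its polysome-associated mRNA had 1734, 1967 and 2052 CPM in control and 934, 944 and 1208 CPM with LPS. The groups were far apart and the 3 experiments close together. Itga4 fell by 1.003 ± 0.11 on the log2 scale in total mRNA (edgeR adjusted p = 4.72e-05), to 0.499 of the control level, and by 0.90 ± 0.19 on polysomes (edgeR adjusted p = 0.00395).

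Itga5, the fibronectin receptor chain, moved the other way. It had 177, 183 and 249.1 CPM in control and 509.6, 408 and 970.2 CPM in LPS total mRNA, and 348, 233 and 346 against 878, 628 and 1245 CPM on polysomes. Every LPS library was above every control library, with experiment 3 the highest of the LPS libraries. Itga5 rose by 1.63 ± 0.29 (edgeR adjusted p = 0.00114) and by 1.57 ± 0.26 (edgeR adjusted p = 0.00117).

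Itgb1, the common β chain of Itga4 and Itga5, had 224, 212 and 238 CPM in control and 327, 297 and 310.2 CPM in LPS total mRNA. On polysomes it had 168, 177 and 215 CPM in control and 251, 213 and 308 CPM with LPS. The groups were apart in total mRNA and overlapped on polysomes. The rise was 0.47 ± 0.11 in total mRNA (edgeR adjusted p = 0.0044) and 0.46 ± 0.25 on polysomes (edgeR adjusted p = 0.186). The polysome result did not pass without experiment 1 (adjusted p = 0.532 with edgeR) or without experiment 3 (adjusted p = 0.382 with edgeR). It passed with the experiment as a block (0.44, edgeR adjusted p = 0.0685).

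Itgav differed more between experiments than between treatments. It had 342, 167 and 396 CPM in control and 405, 240.5 and 540.4 CPM in LPS total mRNA, and 239.7, 111.9 and 279 against 276, 156 and 450.2 CPM on polysomes. The LPS library was above the control library of the same experiment in each of the 3, while the groups overlapped. The change of 0.39 ± 0.39 in total mRNA did not pass (edgeR adjusted p = 0.451), nor did that of 0.48 ± 0.50 on polysomes (edgeR adjusted p = 0.501). With the experiment as a block, both passed, at 0.41 (edgeR adjusted p = 0.00354) and 0.47 (edgeR adjusted p = 0.0626).

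**Figure D2:**
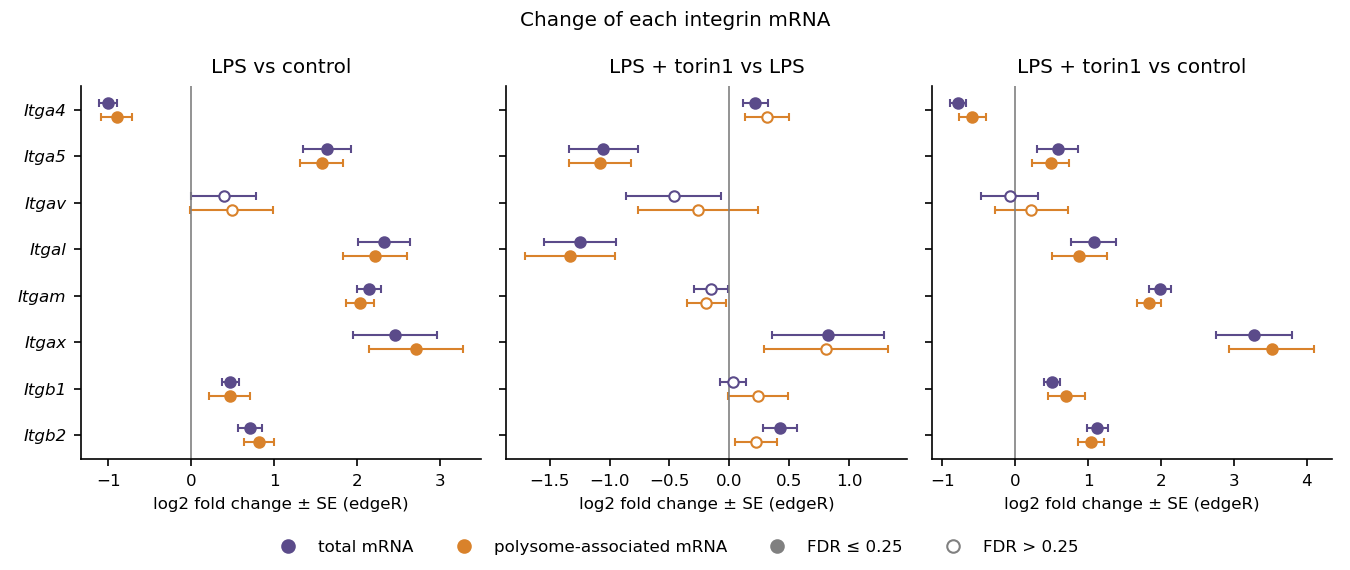
Log2 fold change of each integrin mRNA (horizontal axis, edgeR estimate, bars ± SE) in LPS against control, LPS + torin1 against LPS, and LPS + torin1 against control, purple for total and orange for polysome-associated mRNA. Filled points passed an FDR of 0.25. Under LPS, Itga4 is the only gene left of 0, at −1.003 and −0.90, and the 3 CD11 genes lie between 2.03 and 2.71. With torin1 added, Itga5 and Itgal lie near or below −1 in both RNA types.

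Cells given torin1 before and with LPS had less Itga5 and Itgal mRNA than with LPS alone, in both RNA types. Itgb2 was higher in total mRNA, and Itgam levels overlapped those of LPS alone. This comparison shares its LPS libraries with the one above, so the estimates are given side by side and are not independent. In total mRNA, 5 of 8 passed, 3 higher and 2 lower, against 53.7% of all genes (27.3% higher, 26.4% lower). On polysomes 2 of 8 passed, both lower, against 38.4% of all genes (20.3% higher, 18.2% lower). At an FDR of 0.05, 3 passed in total mRNA, where 29.2% of all genes did. With the experiment as a block, 7 passed in total mRNA (3 higher, 4 lower), where 64% of all genes did (32.6% higher, 31.4% lower), and 6 on polysomes (3 higher, 3 lower), where 49.7% did (25.4% higher, 24.3% lower). The median change of the 8 was −0.06 in total and 0.02 in polysome-associated mRNA, beside 0.00 for all genes in both. The summed macrophage markers of LPS + torin1 total mRNA lay below every LPS and control library. Of the 8 measured, 2 were higher and 4 lower than with LPS in total mRNA, and 1 was higher and 4 lower on polysomes. Csf1r, the receptor of the macrophage growth factor, fell from 1121 to 1370 CPM with LPS to 839 to 937 CPM in total mRNA, while Cd68 rose from 624 to 693 CPM to 847 to 885 CPM. The part of these markers in the integrin values was not tested.

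Itga5 had 297, 256 and 358 CPM in total and 455, 356 and 489 CPM in polysome-associated mRNA of LPS + torin1 cells. These lay above every control library and below every LPS library of the same RNA type. Relative to LPS, Itga5 fell by 1.05 ± 0.29 on the log2 scale in total mRNA (edgeR adjusted p = 0.0208) and by 1.08 ± 0.26 on polysomes (edgeR adjusted p = 0.0212), to 0.483 and 0.473 of the LPS level.

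Itgal had 44.8, 40.0 and 59.5 CPM in total and 75.5, 49.3 and 77.2 CPM in polysome-associated mRNA. These also lay between control and LPS, with no overlap with either. Itgal fell by 1.25 ± 0.30 in total mRNA (edgeR adjusted p = 0.0122) and by 1.33 ± 0.38 on polysomes (edgeR adjusted p = 0.0406). Without experiment 1 the polysome change was −1.19 and did not pass (edgeR adjusted p = 0.284). The fit with the experiment as a block gave −1.27 there and passed (edgeR adjusted p = 0.0016).

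Itgam had 506, 705 and 709 CPM in total and 405, 445 and 554 CPM in polysome-associated mRNA. The groups overlapped those of LPS alone in both RNA types, with experiment 1 the lowest of the torin1 libraries. Its difference from LPS was −0.15 ± 0.14 (edgeR adjusted p = 0.45) and −0.19 ± 0.16 (edgeR adjusted p = 0.467). With the block, the value in total mRNA was −0.17 and passed (edgeR adjusted p = 0.231).

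Itgax had 30.4, 23.2 and 57.0 CPM in total and 24.4, 17.7 and 44.4 CPM in polysome-associated mRNA, each above the LPS library of its own experiment while the groups overlapped. In total mRNA the rise over LPS was 0.83 ± 0.47 (edgeR adjusted p = 0.212), and it did not pass without experiment 1 (0.94, edgeR adjusted p = 0.37) or with DESeq2 (0.81, adjusted p = 0.319). The fit with the experiment as a block gave 0.88 and passed (edgeR adjusted p = 0.00111). On polysomes the difference was 0.81 ± 0.52 and did not pass (edgeR adjusted p = 0.332), but with the block it was 0.93 and did (edgeR adjusted p = 0.0137). The osteoclast genes Ctsk, Acp5, Dcstamp and Ocstamp, 4 of 6 listed, summed to 32.4 to 51.5 CPM in control, 43.1 to 81.4 CPM in LPS and 128 to 213 CPM in LPS + torin1 total mRNA. Relative to LPS, 3 of the 4 were higher in both RNA types, while Ocstamp was lower in total mRNA, at 1.34 to 2.61 CPM against 2.99 to 5.68 CPM (edgeR adjusted p = 0.193), and did not pass on polysomes. The dendritic cell markers again moved in opposite directions. Xcr1 fell to 2.75 to 3.63 CPM (edgeR adjusted p = 0.00143) and Zbtb46 rose to 0.706 to 0.976 CPM in total mRNA (edgeR adjusted p = 0.147). The part of these genes in the values of Itgax was not tested.

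Itgb2 had 479, 496 and 645 CPM in total mRNA with torin1 and LPS, above every LPS library, and 556, 466 and 639 CPM on polysomes, where the groups overlapped. It rose by 0.43 ± 0.14 in total mRNA (edgeR adjusted p = 0.0464). On polysomes the difference was 0.23 ± 0.18 and did not pass (edgeR adjusted p = 0.434), but did with the block (0.22, edgeR adjusted p = 0.224). Itgb2 was higher in LPS + torin1 than in LPS in 3 of 3 experiments in both RNA types.

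Itga4 had 1595, 1343 and 1614 CPM in total and 1391, 1000.2 and 1443 CPM in polysome-associated mRNA with torin1. Its difference from LPS was small, 0.22 ± 0.11 in total mRNA (edgeR adjusted p = 0.154) and 0.31 ± 0.18 on polysomes, which passed only with the block (edgeR adjusted p = 0.284, and 0.171 with the block). In total mRNA it did not pass without experiment 1 (edgeR adjusted p = 0.486) or without experiment 3 (edgeR adjusted p = 0.386), but it passed with the block (edgeR adjusted p = 0.0799).

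Itgb1 had 311, 289 and 356 CPM in total and 338, 189.6 and 384 CPM in polysome-associated mRNA, overlapping LPS in both (0.03 ± 0.11, edgeR adjusted p = 0.848, and 0.24 ± 0.25, edgeR adjusted p = 0.562). Itgav had 332, 155 and 372 CPM in total and 314, 94.8 and 328 CPM in polysome-associated mRNA. Its difference from LPS was −0.47 ± 0.40 in total mRNA (edgeR adjusted p = 0.412) and −0.26 ± 0.50 on polysomes (edgeR adjusted p = 0.769). Both passed with the experiment as a block, at −0.49 (edgeR adjusted p = 0.00252) and −0.33 (edgeR adjusted p = 0.211).

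Against control, LPS + torin1 cells had 7 of 8 integrins past the test in total mRNA and 7 of 8 on polysomes, 6 higher and 1 lower in each, where 66.7% and 58.2% of all genes passed (33.1% and 28.5% higher, 33.6% and 29.7% lower). On polysomes only 4 passed without experiment 1, where 40.4% of all genes did, and 4 at an FDR of 0.05, where 35.1% of all genes did. Itgax showed the highest rise, 3.28 ± 0.52 in total mRNA (edgeR adjusted p = 0.000505) and 3.52 ± 0.58 on polysomes (edgeR adjusted p = 0.000967), 9.70-fold and 11.5-fold. Itgam followed at 1.99 ± 0.15 and 1.84 ± 0.17, then Itgb2 at 1.13 ± 0.14 and 1.04 ± 0.18. Itga4 was lower by 0.78 ± 0.11 and 0.59 ± 0.18 and was thus below control with and without torin1. These estimates share their control libraries with those of LPS alone.

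The make-up of the α-subunit pool, a description with no test, differed between the treatments. Itga4 held 64.1% ± 3.71 of the RPKM of the 6 α genes in control total mRNA (SD, n = 3), 22.7% ± 3.63 under LPS and 32.1% ± 3.16 with torin1 and LPS. Itgam held 11.01% ± 1.31, 34.5% ± 5.73 and 37.7% ± 6.62. Itga5 held 14.0% ± 1.73, 29.2% ± 7.28 and 18.1% ± 1.33, and on polysomes 24.7% ± 3.58, 43.3% ± 3.79 and 28.3% ± 0.939. The Itga4 share of LPS and that of control did not overlap, and the Itga5 share on polysomes with torin1 lay wholly below that of LPS. The values with another gene length are given under the processing.

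The CD11 genes outgrew their β chain. The RPKM of Itgal, Itgam and Itgax summed to 36.4 ± 4.14 in control, 163 ± 14.6 in LPS and 142 ± 25.2 in LPS + torin1 total mRNA, most of it Itgam (86.96% to 89.4% on average). Itgb2 divided by this sum was 2.24 ± 0.138 in control, 0.805 ± 0.0701 with LPS and 1.25 ± 0.158 with torin1 and LPS. On polysomes the ratio was 2.75 ± 0.304, 1.15 ± 0.0469 and 1.67 ± 0.182. The order of the treatments was thus the same in both RNA types, and mRNA ratios say nothing of the amounts of protein.

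**Figure D3:**
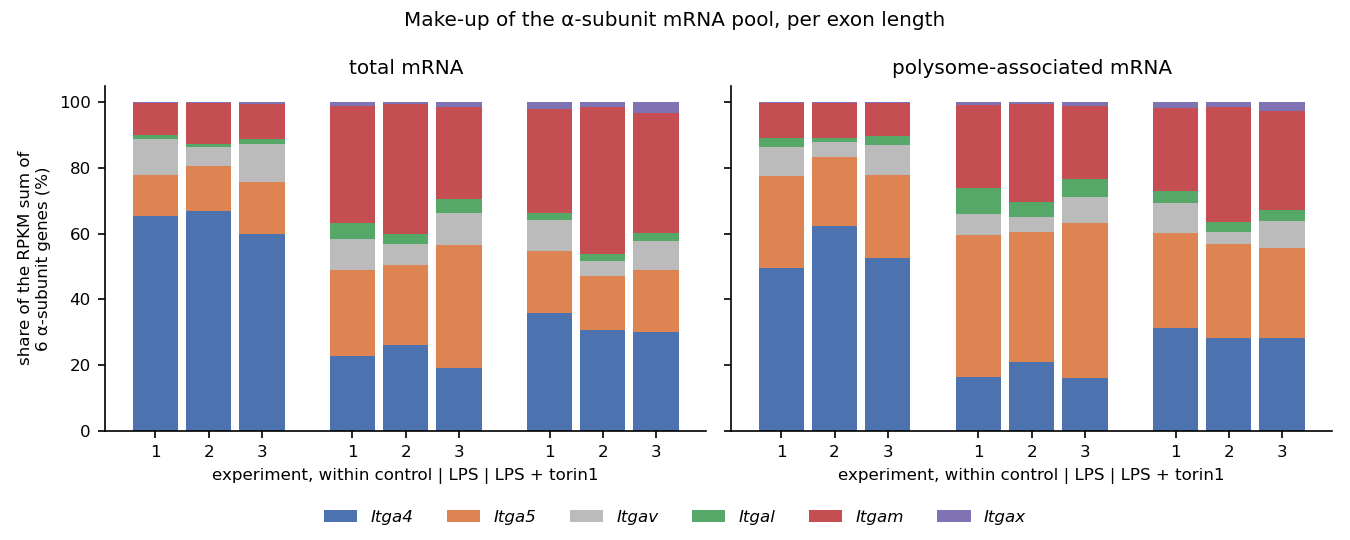
Share of each α-subunit gene (vertical axis, percent of the RPKM summed over 6 genes) in every library, with total mRNA on the left and polysome-associated mRNA on the right, and the 3 experiments side by side within control, LPS and LPS + torin1. The Itga4 part averages 64.1% in control total mRNA and 22.7% with LPS, while the Itgam part averages 11.01% and 34.5%.

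Among the 8, Itga5 and Itgal stood out for their place on polysomes. The log2 difference of polysome-associated minus total CPM within a lysate was 0.60 ± 0.33 for Itga5 and 0.62 ± 0.42 for Itgal in control (SD, n = 3), 0.59 ± 0.21 and 0.56 ± 0.23 with LPS, and 0.49 ± 0.10 and 0.46 ± 0.26 with torin1 and LPS. It was above 0 in all 9 lysates for both. Itga4, Itgam, Itgav and Itgax were below 0 in all 9 lysates, with means between −0.28 and −0.62. Itgb2 and Itgb1 lay around 0, with means of 0.02 to 0.24 and −0.15 to −0.29. Itga5 stood between percentiles 68.9 and 88.2 of all genes in its lysates, and Itgam between percentiles 18.1 and 43.5.

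**Figure D4:**
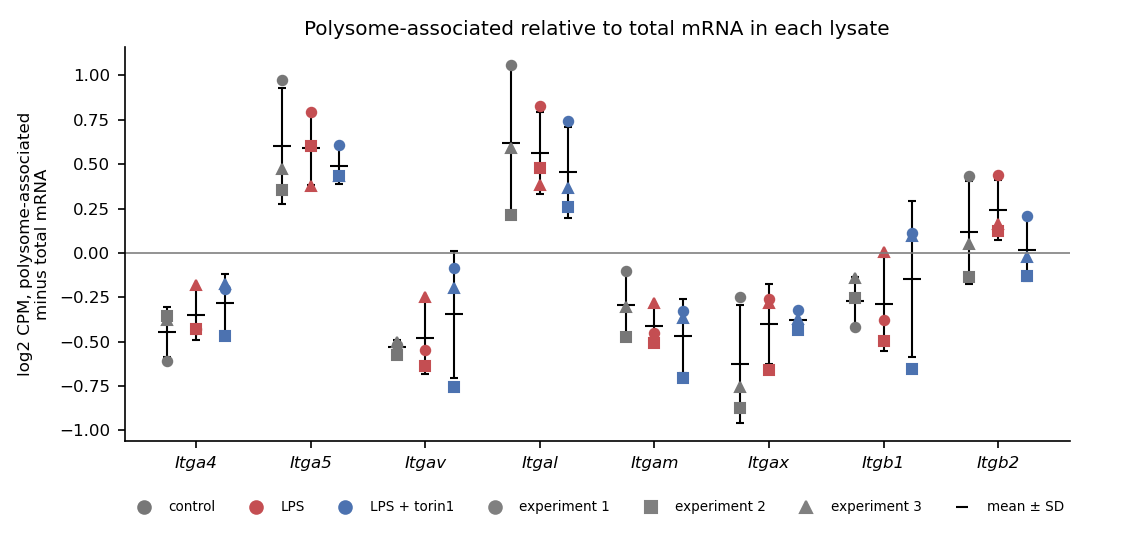
Polysome-associated minus total mRNA of each integrin gene (vertical axis, log2 CPM difference within a lysate), with control in grey, LPS in red and LPS + torin1 in blue. Points are single lysates, with the shape giving the experiment, and bars are the mean ± SD of 3. Itga5 and Itgal are above 0 in every lysate, Itga4, Itgam, Itgav and Itgax below, and the treatments overlap for each gene.

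Translation efficiency, the polysome-associated level relative to the total level, was tested by whether the treatment effect differed between the RNA types. No integrin passed the test in any of the 3 comparisons, and neither did any gene of the table (0% of all genes), although with edgeR an unadjusted p under 0.05 was seen for 44, 110 and 145 genes in LPS against control, LPS + torin1 against LPS and LPS + torin1 against control. DESeq2 called 1, 7 and 1 genes, none of them among the 8. The edgeR model did not pair the libraries of a lysate. With that block, 0, 25 and 3 genes were called, again none of the 8. With anota2seq at the same FDR, the study did report altered translation efficiency for some mRNAs under LPS. It attributed these effects largely to mTOR, since torin1 mostly undid them. Of lysosomal mRNAs it named M6pr, Lamp2 and Cln3. The 0% above belongs to edgeR's test without the block. The 8 changes in translation efficiency between LPS and control ran from −0.11 for Itgam to 0.27 for Itgax, with unadjusted p between 0.61 and 0.983 in edgeR's test and standard errors from 0.21 to 0.81. Between LPS + torin1 and LPS they ran from −0.22 ± 0.23 for Itgb2 to 0.19 ± 0.29 for Itgb1. For Itga5 and Itgal, whose mRNAs fell in both RNA types with torin1, the values were −0.06 ± 0.42 and −0.11 ± 0.53. A difference for the 8 genes was not detectable with the tests used here, and standard errors of this size do not exclude changes in efficiency.

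Of the other integrin subunits, 8 of 19 were in the table (Itga2b, Itga6, Itga7, Itga10, Itgae, Itgb4, Itgb5 and Itgb7). Under LPS 2 of them fell on polysomes and none rose, with a median of −0.47. Itgb5, a partner of Itgav, fell by 1.86 ± 0.38 on the log2 scale, from 95.4 ± 44.9 to 26.4 ± 8.63 CPM (edgeR adjusted p = 0.00386). Itga6, a laminin receptor chain, fell by 1.25 ± 0.40 (edgeR adjusted p = 0.036). In total mRNA 1 rose and 2 fell. The share that passed was 37.5% in total mRNA and 25% on polysomes, beside 66.5% and 55.1% of all genes. With torin1 against LPS, 2 rose in total mRNA (1 without experiment 1) and 0 passed on polysomes (up to 2 with an experiment left out).

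Integrin activation and regulation, 23 of 28 genes measured, had 11 higher and 5 lower in total and 9 higher and 5 lower in polysome-associated mRNA under LPS. The share that passed, 69.6% and 60.9%, was near that of all genes. The medians were 0.18 and 0.21. Rap1b, a small GTPase that switches integrins on, rose on polysomes by 1.71 ± 0.19, from 226 ± 51.5 to 740 ± 55.9 CPM (edgeR adjusted p = 0.000102). Rasgrp1, a Ras exchange factor, rose by 1.72 ± 0.64 (edgeR adjusted p = 0.0623), from a level of 0.0551 CPM with as few as 1 count in a library. Kank2, a talin-binding adaptor, fell by 3.02 ± 0.41 (edgeR adjusted p = 0.000338), and Rasgrp3, an exchange factor of the same family as Rasgrp1, fell by 2.04 ± 0.30 (edgeR adjusted p = 0.000577). Tln2, a talin, fell by 0.64 ± 0.19 (edgeR adjusted p = 0.0254).

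Adhesion signalling and cytoskeletal linkage, 40 of 42 genes measured, had 26 higher and 4 lower in total and 23 higher and 3 lower in polysome-associated mRNA under LPS, or 75% and 65% of those measured, with medians of 0.47 and 0.46. Its 3 highest were Src, a kinase downstream of integrins, at 4.84 ± 0.22 (6.01 ± 1.50 to 172 ± 19.1 CPM, edgeR adjusted p = 5.93e-07), Lcp2, the adaptor SLP-76, at 3.15 ± 0.19, and Fgr, a Src-family kinase of myeloid cells, at 2.53 ± 0.26. Vav2, a signalling protein downstream of integrins, fell by 1.02 ± 0.19 (edgeR adjusted p = 0.00259), and Git2, an Arf GTPase-activating protein of focal adhesions, fell by 0.23 ± 0.13 (edgeR adjusted p = 0.188).

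Of the ligands and counter-receptors, 18 of 36 were measured, with 13 higher and 2 lower in total and 10 higher and 1 lower in polysome-associated mRNA. That is 83.3% and 61.1% of those measured. The medians of 1.296 and 1.04 were the highest of the 5 lists. Tnc, the matrix protein tenascin-C, rose by 6.83 ± 0.59, from 0.928 ± 0.558 to 108 ± 55.2 CPM (edgeR adjusted p = 1.98e-05). F11r, the junctional adhesion molecule that binds LFA-1, rose by 3.75 ± 0.43 (edgeR adjusted p = 0.000105). Plaur, the urokinase receptor, which associates with Mac-1, rose by 3.36 ± 0.35 (edgeR adjusted p = 6.2e-05).

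Integrin trafficking and tetraspanin partners, 29 of 31 measured, had 18 higher and 5 lower in total and 16 higher and 4 lower in polysome-associated mRNA, or 79.3% and 69% of those measured, with medians of 0.28 and 0.38. Nothing particular to these lists is read from the shares that passed, beside a background of 66.5% and 55.1%. By direction, 32.2% of all genes were higher and 34.3% lower in total mRNA, and 26.4% and 28.7% on polysomes. The activation, signalling, ligand and trafficking lists held more higher than lower genes in both RNA types, and this tilt was not tested. Rab11fip1, a recycling effector of Rab11, rose by 1.94 ± 0.25 (edgeR adjusted p = 0.000245), Acap1, an Arf6 regulator of integrin recycling, by 1.58 ± 0.37 (edgeR adjusted p = 0.00776), and Dab2, an endocytic adaptor, by 1.23 ± 0.22 (edgeR adjusted p = 0.00155). The adaptor Numb fell by 1.03 ± 0.16 (edgeR adjusted p = 0.000801), the tetraspanin Cd81 by 0.69 ± 0.18 (edgeR adjusted p = 0.0129) and the recycling GTPase Rab4a by 0.73 ± 0.35 (edgeR adjusted p = 0.143). Without experiment 1, the genes of this list that passed on polysomes numbered 12 in place of 20, and those of the activation list 9 in place of 14.

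With torin1 against LPS, the genes past the test on polysomes numbered 6 higher and 2 lower for activation, 11 higher and 6 lower for signalling, 3 higher and 6 lower for ligands, and 6 higher and 4 lower for trafficking. These are 34.8%, 42.5%, 50% and 34.5% of those measured, beside 38.4% of all genes. In total mRNA the counts were 5 and 5, 13 and 6, 4 and 6, and 8 and 5, or 43.5%, 47.5%, 55.6% and 44.8%, beside 53.7% of all genes. The shares were near the background and are not a result about these lists. The counts depended on single experiments. In total mRNA without experiment 3, the activation and trafficking lists held 5 and 6 genes past the test in place of 10 and 13. On polysomes without experiment 1 the activation, signalling and trafficking lists held 1, 7 and 4 genes past the test in place of 8, 17 and 10, and without experiment 3 the activation, signalling, ligand and trafficking lists held 2, 6, 5 and 2.

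The ligand Tnc fell by 4.21 ± 0.51, from 108 ± 55.2 to 5.80 ± 1.18 CPM (edgeR adjusted p = 0.00105), and F11r fell by 1.53 ± 0.38 (edgeR adjusted p = 0.024). Tgm2, the transglutaminase that acts as an integrin co-receptor for fibronectin, rose by 1.77 ± 0.64 (edgeR adjusted p = 0.0923), and C3, whose fragment iC3b is bound by Mac-1, rose by 1.05 ± 0.30 (edgeR adjusted p = 0.0406). Syk, the kinase that relays β2 integrin signals, rose by 1.58 ± 0.19, to 331 ± 76.2 CPM (edgeR adjusted p = 0.00105), and Vav3, one of its substrates, by 1.16 ± 0.21 (edgeR adjusted p = 0.00634). Fgr fell by 0.67 ± 0.24 and Pik3cd, a phosphoinositide kinase of leukocytes, by 0.54 ± 0.21 (edgeR adjusted p = 0.0972 and 0.118).

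In the activation list, the adaptor Dok1 rose by 0.82 ± 0.17 and Rasgrp3 by 0.69 ± 0.29 (edgeR adjusted p = 0.0117 and 0.145), while Rasgrp4 fell by 0.93 ± 0.30 and Cd47, a partner of Itgav integrins, by 0.40 ± 0.16 (edgeR adjusted p = 0.0621 and 0.13). In the trafficking list, Numb rose by 0.88 ± 0.16 and the tetraspanin Cd9 by 0.68 ± 0.20 (edgeR adjusted p = 0.0067 and 0.052). Acap1 fell by 1.41 ± 0.37 and the tetraspanin Cd82 by 0.69 ± 0.22 (edgeR adjusted p = 0.03 and 0.0571).

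For each integrin the gene of the whole table with the nearest profile was found from 12 values, the log2 changes of the LPS and LPS + torin1 libraries against control in each experiment and RNA type. The root mean square distance was 0.120 from Itga4 to Racgap1, 0.235 from Itga5 to Sik3, 0.182 from Itgal to Parp10, 0.157 from Itgam to Fosl2, 0.129 from Itgav to Tmem131, 0.311 from Itgax to Rab20, 0.0911 from Itgb1 to Rasal2 and 0.143 from Itgb2 to Heatr6. None of these nearest genes was another integrin. The integrin nearest to Itgam was Itgal at 0.663, with 203 other genes nearer, and for Itgax it was Itgam at 1.15, with 191 genes nearer. The distances are descriptions over libraries that share their controls.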

How the data were processed

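RNA-seq of total and polysome-associated mRNA of RAW264.7 cells (3 treatments, 3 experiments, 18 libraries) was used. The authors made stranded libraries after ribosomal RNA depletion, sequenced paired ends, aligned with Hisat2 to GRCm38 and counted with featureCounts and an Ensembl annotation at pipeline defaults. The deposited values are raw counts of 11243 protein-coding genes, since the authors removed genes with 0 counts in any library. The annotation version and the strand setting are not given in the sources used here. No pair of replicate libraries was alike within counting error (chi-squared per degree of freedom of 26.3 or more).

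Counts were tested in R 4.3.3 with edgeR 4.0.16 (TMM, quasi-likelihood, 9 libraries of an RNA type in one model, Benjamini-Hochberg over all genes, FDR 0.25 after the study's methods). Translation efficiency was the interaction in one model of 18 libraries, with a minimum fold of 1.2. The study used anota2seq, which was not installed, so its analysis of partial variance (log2 CPM, pseudocount 0.5, limma 3.58.1) was an alternative. The others were DESeq2 1.42.0, other size factors, a mean of at least 100 counts, FDR 0.05, other library sets in the model, the experiment or lysate as a block, and each experiment left out. Scripts were tested on simulated counts. RPKM used merged exon lengths of a GRCm38 annotation (GENCODE). Gene length by the longest coding transcript was added after seeing the data.

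The experiments pair the libraries by the study's methods. Deviations from group means correlated by 0.127 to 0.540 between libraries of the same experiment in total mRNA and by −0.141 to 0.843 on polysomes. Between different experiments they correlated by −0.369 to 0.121 and by −0.670 to 0.342, so the ranges overlapped on polysomes. There, the control libraries of experiments 1 and 2 correlated by −0.141 to 0.030 with treated libraries of their own experiment. For experiment 3 these values were 0.444 and 0.477.

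The 8 genes and all gene lists were chosen with earlier results of these data known. From each list, up to 3 genes per direction with the largest polysome-associated change under LPS, and up to 2 with torin1, are named if they passed and moved one way in all experiments. A gene that this rule names is not reported here.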

Additional observations from a re-analysis of the deposited data

How the results depend on the processing

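Over the 8 genes and the 6 comparisons of mRNA levels, 442 of 480 alternative values kept direction and side of the threshold, 22 lost it, 15 gained it and 1 reversed: Itgb1 with torin1 against LPS in total mRNA, −0.058 to 0.085 with an experiment left out. Of 8 genes, those past the test with torin1 against LPS numbered 5 in total mRNA, but 3 in one model over all libraries, 3 at an FDR of 0.05 and 3 to 6 with an experiment left out. On polysomes they numbered 2, but 6 with the replicate block and 1 to 5 with an experiment left out. Against control on polysomes, 7 became 4 at an FDR of 0.05 and 4 to 7 with an experiment left out. The block changed no call of these 8 genes other than those given above. The cause of these changes was not tested.

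No efficiency change passed in any alternative for the 8 genes, so its sign carries no call. In the analysis of partial variance, which tests the polysome-associated level adjusted for the total level, the sign reversed under LPS for Itga5 (0.38), Itgam (0.88), Itgav (−0.065) and Itgax (−0.072), with torin1 against LPS for Itga4 (−0.17) and Itgal (0.033), and with torin1 against control for Itga5 (0.040), Itgam (0.75), Itgax (−0.14), Itgb1 (−0.70) and Itgb2 (0.44). With torin1 against LPS, Itgax reversed to 0.012 with the replicate block, 0.0046 with DESeq2 and 0.0059 with other size factors. With an experiment left out, the sign also depended on which. The ranges were −0.082 to 0.014 for Itgax, −0.18 to 0.030 for Itga5 and −0.099 to 0.011 for Itgam with torin1 against LPS. Under LPS they were −0.17 to 0.020 for Itga5, −0.044 to 0.14 for Itgav and −0.097 to 0.093 for Itgb1. With torin1 against control the range was −0.19 to 0.026 for Itga5. Across all genes, the block called 0, 25 and 3 changes in efficiency and the analysis of partial variance 2, 7 and 2, in the order LPS against control, LPS + torin1 against LPS and LPS + torin1 against control.

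With longest coding transcripts, the Itga4 share of total mRNA was 67.7%, 26.7% and 37.1% in control, LPS and LPS + torin1, and 12 of 36 shares moved by more than 1 SD. With an FDR of 0.05, the list counts with torin1 against LPS on polysomes were 1 for activation, 8 for signalling, 6 for ligands and 3 for trafficking. By depth, Itgax had the fewest counts of the 8 genes, 52 in its lowest library.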
